A study of Mus musculus with 18 samples.

Results

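Circular RNAs of the Prader-Willi imprinted interval were described in mouse brain, as all circles on chromosome 7 whose start and end both lay between 58500000 and 63000000 on GRCm39. A circle was defined by the positions of its back-splice junction, the place where a downstream splice donor was joined to an upstream acceptor. The interval was chosen because circles in it were lower in Adar1-2KO than in wild type brain on the Illumina platform, so that difference, and the difference of Adar1-2KO from Adar2KO in the same libraries, is given below as a description and supports nothing. The rule took 1513 of the 328715 circles listed on either platform, of which 1315 of 208914 were on Illumina and 232 of 166212 on Oxford Nanopore (ONT), with 34 on both. By midpoint, the 1315 Illumina circles fell into 4 stretches: 159 on the Ube3a side (up to 59 Mb), 620 on the Snrpn side (59 to 60 Mb), 514 on the Mir344 side, which also holds A230006K03Rik and A230057D06Rik (60 to 62 Mb), and 22 on the Magel2 side (62 Mb to the end).

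The brains came from C57BL/6J males aged 3 to 4 months, with 3 biological replicates of each genotype. Wild type mice were set beside Adar2-/-Gria2R/R mice (Adar2KO), which lack the RNA editing enzyme ADAR2 and carry the Gria2 allele of the edited receptor subunit, and beside Adar1E861A/E861A Ifih-/-Adar2-/-Gria2R/R mice (Adar1-2KO), whose ADAR1 is in addition catalytically inactive and which lack Ifih. Both mutant groups thus share the Adar2 deletion and the Gria2 allele, and no group carries the Adar1 or the Ifih change alone. RNA was treated with RNase R, which digests linear RNA, and was reverse transcribed with random hexamers. Wild type replicate 1 on ONT and the second Illumina caller's table of Adar1-2KO replicate 1 were not used here.

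The Prader-Willi interval is an imprinted domain in which the paternal chromosome transcribes Snurf-Snrpn, Ndn, Magel2, Mkrn3 and Peg12, and the very long non-coding transcript Snhg14. Snhg14 is the host of the repeated Snord115 and Snord116 small nucleolar RNAs and runs antisense to Ube3a, a ubiquitin ligase that neurons express from the maternal chromosome. The stretch between Snrpn and Ndn holds few protein-coding genes and carries the Mir344 cluster of microRNAs. ADAR enzymes convert adenosine to inosine in double-stranded RNA, and double-stranded RNA between the introns that flank a circle can bring its ends together.

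RefSeq (GRCm38.p6) holds 13 Mir344 genes, and all 13 were among the gene names that the deposited tables gave to circles spanning them. Mature sequences are printed for the genes named by the most abundant of these circles (Mir344 and Mir344c) and by the largest numbers of circles (Mir344f and Mir344i), and for Mir344b. The seed, bases 2 to 8, is in capitals.
mmu-miR-344-5p: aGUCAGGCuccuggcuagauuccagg
mmu-miR-344c-5p: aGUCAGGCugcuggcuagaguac
mmu-miR-344b-5p: aGUCAGGCuccuggcuaaaguuc
mmu-miR-344f-5p: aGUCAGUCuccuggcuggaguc
mmu-miR-344i: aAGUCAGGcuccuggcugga
mmu-miR-344-3p: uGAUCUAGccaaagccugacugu
mmu-miR-344c-3p: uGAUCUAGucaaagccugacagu
The GUCAGGC seed was shared by 6 mature miRNAs from 7 of the genes, and the GAUCUAG seed by the 3p arms of miR-344 and miR-344c. The circles that span these genes can be long, and nothing in the tables says which exons or introns they keep, so a circle that spans a gene need not hold its sequence.

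Levels are given as CPM, the reads of a circle per 1000000 back-splice reads in its library with TMM factors applied, for replicates 1, 2 and 3 in that order; CIRI2 levels are per 1000000 junction reads without these factors. CIRIquant, the first caller, listed 1516772 to 4308264 back-splice reads a library over 21736 to 76743 circles, and the ONT tables held 186594 to 673705 reads over 22347 to 47174 circles. The third Adar1-2KO library stood apart, with the most reads and the fewest circles on Illumina and the most reads on ONT. A circle that a table does not list was counted as 0; CIRIquant lists circles from 1 read, and CIRI2 (the second Illumina caller) and ONT from 2 reads. Neuronal hosts marked the tissue, since the circles of Dlgap1, a postsynaptic scaffold gene, summed to between 2088 and 2657 CPM in the 9 libraries. Of the markers of other cells, the microglial Mertk had 33 circles at 35.3 to 68.3 CPM and Inpp5d 4 at up to 3.34 CPM, while Csf1r had none. Of the markers of other tissues, the muscle gene Ttn had 15 circles at up to 23.5 CPM and Myh6 had 1, while the liver genes Apob, Alb and Cps1 had none. Circles of Adarb1, which encodes ADAR2, reached 41.8 to 62.2 CPM in wild type, 112 to 153 CPM in Adar2KO and 94.5 to 184 CPM in Adar1-2KO; circles can lie outside a deleted part, so this is no check of the genotypes.

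The kinds of circle in the interval are described for each platform, with no test. On Illumina 55.4% of its circles were intronic and 30.5% exonic, as the deposited tables class them, against 14.0% and 74.2% of the circles outside it. Circles on the minus strand made up 96.0% of the interval and 49.6% elsewhere, and 42.1% of the interval's circles spanned more than 50 kb against 12.5% elsewhere. On ONT these contrasts were smaller, absent or reversed. Of all its circles, some of which have no strand, 47.8% of the interval's were on the minus strand against 43.6% elsewhere. In numbers, 111 were on the minus and 73 on the plus strand, against 72432 and 76211 elsewhere. On ONT 38.8% were exonic against 48.1%, 10.3% intronic against 9.87%, and 1.29% spanned more than 50 kb against 4.52%. On Illumina the Ube3a side alone had a sizeable share of plus-strand circles, 42 of 159. The 2 adjoining windows of the same length held 432 and 448 Illumina circles. Where Ube3a and Snhg14 overlap, the gene of a circle is uncertain, because no strand-marking step is given in the protocols.

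Of the 1315 Illumina members, 163 had at least 5 reads in at least 3 libraries and entered the fit. The filter passed some of them through 1 genotype alone, so counts over the 163 are no sample of all members. In the edgeR quasi-likelihood fit of all Illumina circles, 5 of the 163 had an adjusted p under 0.05 for Adar1-2KO against wild type, all of them lower and all on the Mir344 side. Of all tested circles, 0.0627% were called in this comparison. Leaving out any 1 wild type or Adar2KO library, or Adar1-2KO replicate 2, left 1 or 2 calls, and leaving out Adar1-2KO replicate 1 or 3 gave 4 or 6. Since this contrast chose the interval, nothing is read from these counts. Groups did not overlap and Adar1-2KO was lower for 31 of the 163 (9.81% of all tested circles), and Adar1-2KO was higher without overlap for 9 (2.77%). The median log2 fold change was -1.03 over the 163 and -0.26 over all tested circles. In whole brain, a circle that is lower because fewer cells of a type were present and one that is lower in each cell cannot be told apart.

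**Figure D1:**
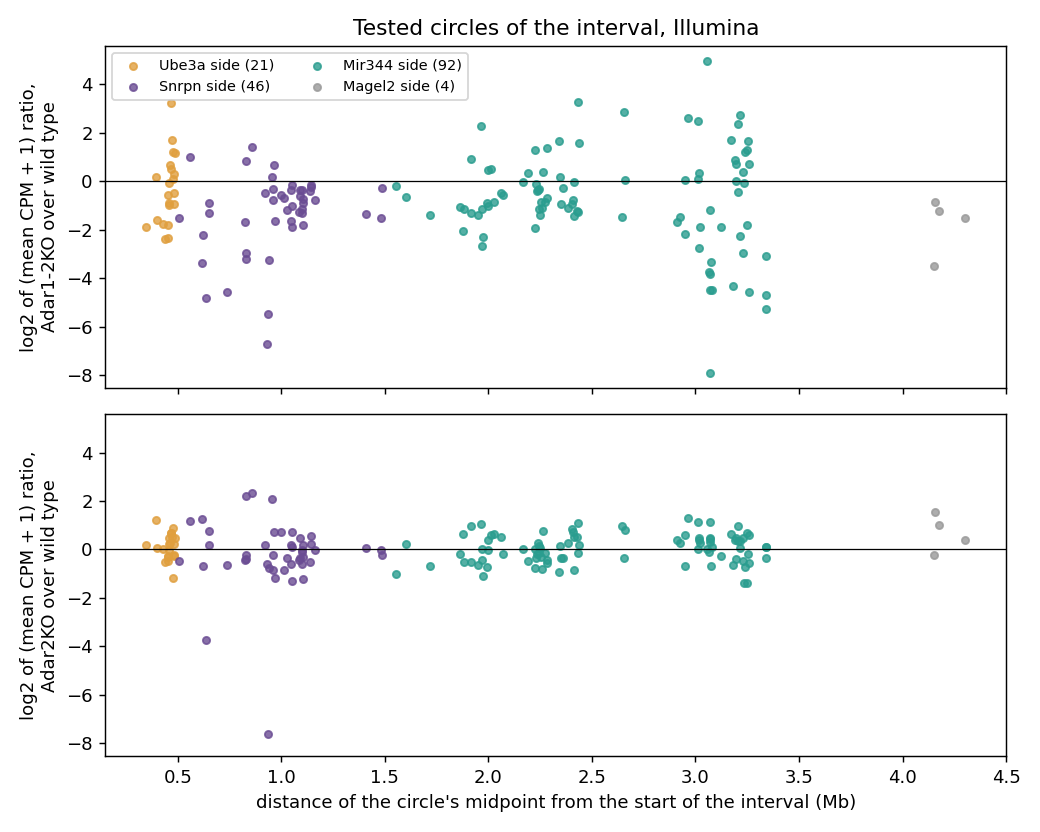
Difference of each of the 163 tested Illumina circles from wild type, as log2 of the ratio of mean CPM plus a pseudocount of 1, against the distance of the circle's midpoint from the start of the interval in megabases; Adar1-2KO is above and Adar2KO below, and colours mark the 4 stretches. For Adar1-2KO, 30 circles lie below -2 and 9 above 2, while for Adar2KO 2 lie below -2 and 3 above 2.

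A230057D06Rik, a long non-coding RNA gene on the minus strand of the Mir344 side, gave the most abundant of the tested circles that no Adar1-2KO library listed. Its circle chr7:61561111-61575168, classed as exonic, stood at 268, 164 and 276 CPM in wild type mice and at 317, 302 and 249.7 CPM in Adar2KO, and had no read in any Adar1-2KO library. Wild type averaged 236 ± 62.7 CPM (SD, n = 3) and Adar2KO 290 ± 35.4 CPM (SD, n = 3), and these 2 groups overlapped. A count of 0 over the 3 Adar1-2KO libraries allows up to 3 reads, which is 0.307 CPM. The circle was therefore at least 768-fold lower than in wild type and at least 934-fold lower than in Adar2KO, bounds that cover counting error only. CIRI2, on the same libraries, gave 1012, 469 and 509 junction reads for wild type and 966, 832 and 913 for Adar2KO. It gave 0 in both Adar1-2KO libraries it covers. In libraries with a CIRI2 table, 100% of the CIRIquant reads of each stretch lay in circles that CIRI2 also listed. A 0 shared by the 2 callers, here and below, is therefore no independent check.

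All circles that share an end with it were then set side by side. On the minus strand the lower coordinate is the downstream end, where the splice donor of a back-splice lies. The 9 circles with the lower end 61561111 summed to 300, 200 and 298 CPM in wild type, to 353, 329 and 284 CPM in Adar2KO and to 0 in all 3 Adar1-2KO libraries. Among them, chr7:61561111-61566484 had 10.8, 17.3 and 8.78 CPM and chr7:61561111-61578039 had 12.7, 17.8 and 9.41 CPM in wild type; both were named after their values were seen.

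The upper end 61575168, the acceptor side of the same circle, stayed in use in Adar1-2KO. Its 14 circles summed to 327, 229 and 328 CPM in wild type, to 388, 395 and 331 CPM in Adar2KO and to 103, 113 and 103 CPM in Adar1-2KO, so the Adar1-2KO libraries lay below all 6 others without reaching 0. What remained there came mostly from circles with a more distant lower end. One of them, chr7:61463010-61575168, which spans Mir344 and Mir344c, was at 54.9, 59.6 and 50.2 CPM for wild type, 64.3, 81.1 and 71.9 CPM in Adar2KO and 71.2, 73.9 and 67.0 CPM in Adar1-2KO. Every mutant library was above every wild type library by this caller. CIRI2 placed the same circle at 209, 229 and 177 CPM in wild type, at 150, 243 and 152 in Adar2KO and at 67.9 and 77.2 in Adar1-2KO, the lowest of the 8, so the callers ordered the genotypes differently.

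A further circle on that acceptor was listed in Adar1-2KO alone. The circle chr7:61533001-61575168, intronic to A230057D06Rik and named after its values were seen, had 26.7, 28.1 and 34.7 CPM in Adar1-2KO and no read in the 6 other libraries. Against wild type it was at least 70.9-fold higher, and CIRI2 listed 87 and 209 reads in Adar1-2KO and none elsewhere. In the authors' deposited table its log2 fold change was 6.76 with an adjusted p of 0.00455, and it was the interval's only higher circle there past 0.05.

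The short intergenic circle chr7:61463010-61463938 was also higher in Adar1-2KO. It had 0, 64.9 and 32.0 CPM in wild type brain, 72.4, 81.9 and 85.6 CPM in Adar2KO and 201, 191 and 219 CPM in Adar1-2KO. Wild type was lowest, Adar2KO between and Adar1-2KO highest, with no overlap. The 14 circles with its lower end, 61463010, which the Mir344-spanning circle above also uses, summed to 81.0, 148 and 97.8 CPM for wild type, 177, 196 and 177 CPM in Adar2KO and 297, 285 and 297 CPM in Adar1-2KO. For Adar2KO against wild type the single circle had a log2 fold change of 1.31 with an SE of 0.98 and an edgeR adjusted p of 1, in a comparison that shares the wild type libraries with the one behind the choice.

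Summed over its 55 circles, A230057D06Rik gave 472, 320 and 430 CPM in wild type brain, 513, 535 and 449 CPM in Adar2KO and 124, 130 and 114 CPM in Adar1-2KO. The means were 407 ± 78.3, 499 ± 44.5 and 123 ± 7.88 CPM (SD, n = 3 each), and the Adar1-2KO libraries were the lowest of all. Intronic circles of the gene were absent from Adar1-2KO as well. Among these, chr7:61575059-61581241 had 19.4, 16.9 and 27.0 CPM in wild type mice and 19.4, 28.2 and 20.4 CPM in Adar2KO and none in Adar1-2KO, at least 66.1-fold below wild type. The circle chr7:61566307-61578039, named after its values were seen, had 44.1, 0 and 18.8 CPM in wild type mice and 23.6, 34.7 and 28.8 CPM in Adar2KO, again with none in Adar1-2KO. ONT listed no circle of this gene in any library, so the pattern has no counterpart on the second platform.

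**Figure D2:**
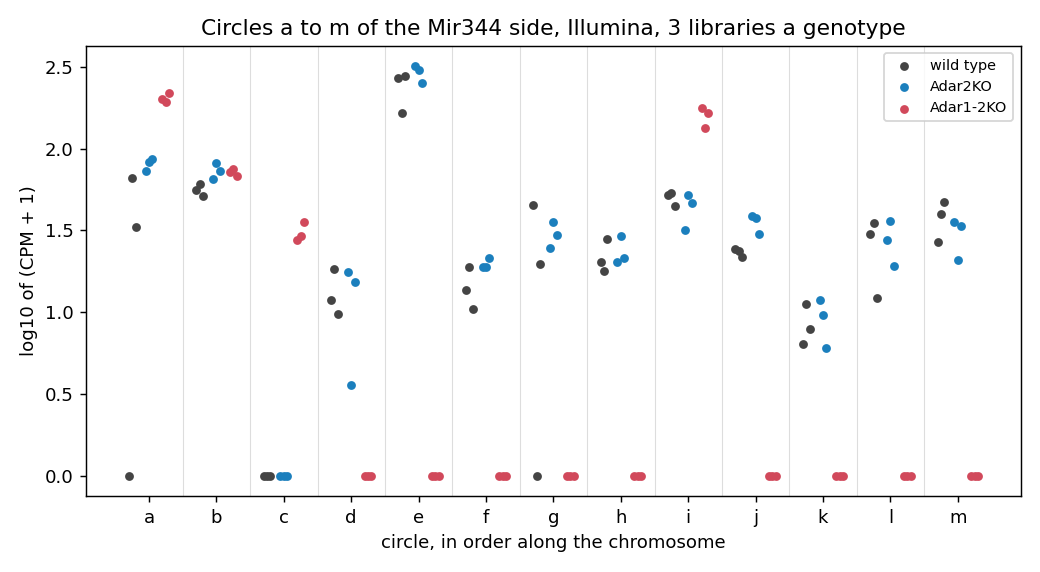
Level of 13 circles of the Mir344 side in each Illumina library, as log10 of CPM plus 1, in order along the chromosome; a is chr7:61463010-61463938, b chr7:61463010-61575168, c chr7:61533001-61575168, d chr7:61561111-61566484, e chr7:61561111-61575168, f chr7:61561111-61578039, g chr7:61566307-61578039, h chr7:61575059-61581241, i chr7:61740862-61768791, j chr7:61752447-61768791, k chr7:61840465-61840949, l chr7:61840465-61843341 and m chr7:61841753-61843341. Adar1-2KO sits at 0 for d to h and for j to m, and above both other genotypes for a, c and i. Circles c, d, f, g and k were named after their values were seen.

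Upstream of A230057D06Rik on the same strand, a pair of intergenic circles with a common upper end differed in opposite directions in Adar1-2KO. The circle chr7:61752447-61768791 had 23.5, 22.7 and 20.7 CPM for wild type, 38.0, 36.4 and 29.1 CPM in Adar2KO and none in Adar1-2KO, at least 73.5-fold below wild type. The circle chr7:61740862-61768791 had 50.8, 52.4 and 43.9 CPM in wild type brain, 30.6, 51.2 and 45.8 CPM in Adar2KO and 176, 134 and 164 CPM in Adar1-2KO. Their shared acceptor side, position 61768791, gave 83.2, 83.1 and 73.4 CPM in wild type brain, 72.4, 97.1 and 76.9 CPM in Adar2KO and 202, 151 and 178 CPM in Adar1-2KO over its 11 circles. Here, too, the upper end was kept while the lower end differed between genotypes, and Adar1-2KO lay above the other libraries at the end itself.

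Farther along, a group of small intergenic circles was at 0 in Adar1-2KO by CIRIquant. The 8 circles with the upper end 61843341 summed to 57.5, 77.3 and 62.1 CPM for wild type, to 62.4, 56.8 and 57.5 CPM in Adar2KO and to 0 in Adar1-2KO. Within the group, chr7:61840465-61843341 had 28.9, 34.2 and 11.3 CPM in wild type and was at least 86.6-fold lower in Adar1-2KO. For chr7:61841753-61843341, with 26.0, 38.7 and 46.4 CPM in wild type, the bound was at least 113-fold by CIRIquant. CIRI2 did not share that 0, since it listed 81 and 31 reads of this circle in Adar1-2KO replicates 2 and 3, beside 98, 99 and 98 in wild type and 103, 75 and 215 in Adar2KO. The absence of chr7:61841753-61843341 thus depended on the caller, while chr7:61840465-61843341 had no Adar1-2KO read by either.

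Ends at 0 were then counted over the whole genome. An end was eligible when its circles averaged at least 20 CPM over the 2 other genotypes and were listed in every library of both. In the interval 5 of 28 eligible lower ends (17.9%) and 2 of 23 upper ends (8.70%) had no read in any Adar1-2KO library, against 2 of 5047 (0.0396%) and 2 of 5043 (0.0397%) elsewhere. All 7 were on the Mir344 side. At 5 of the 7 CIRI2 also had no read in Adar1-2KO. For ends at 0 in Adar2KO or in wild type fewer ends of the interval were eligible, 11 and 12 on either side, and none was at 0. Because the interval was chosen on this contrast, these shares are a description.

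By whole circles, 34 of the 163 tested members had no read in any Adar1-2KO library, where 4.03% of all tested circles had none. They were 22 circles of the Mir344 side, 8 of the Snrpn side, 3 of the Magel2 side and 1 of the Ube3a side. CIRI2 listed no read of 31 of the 34 in its Adar1-2KO tables. In the authors' deposited table of Adar1-2KO against wild type, 966 circles of the interval had an adjusted p; 5 were lower and 1 was higher past 0.05, and 0.0342% of all circles with an adjusted p in that table were past it in either direction. The lower circles include chr7:61841753-61843341 with a log2 fold change of -7.09 (adjusted p = 0.00137) and chr7:61752447-61768791 with -6.46 (adjusted p = 0.0140) in the authors' deposited table. The other lower ones were chr7:61840465-61843341, chr7:61575059-61581241 and, on the Snrpn side, chr7:59116181-59160442, and the higher one was chr7:61533001-61575168. The A230057D06Rik circle chr7:61561111-61575168 was not among the 5 lower circles of that table. No fold change or p-value for it was found among that table's values for the named circles, so it may not have been tested there.

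The other main host of the Mir344 side was A230006K03Rik, a non-coding gene with 144 circles. They summed to 643, 664 and 677 CPM for wild type, 571, 492 and 670 CPM in Adar2KO and 600, 415 and 370 CPM in Adar1-2KO, so that Adar1-2KO lay below wild type and overlapped Adar2KO. Its leading circle, the exonic chr7:60844735-60852737, had 350, 356 and 333 CPM in wild type brain, 258, 252 and 316 CPM in Adar2KO and 245, 142 and 158 CPM in Adar1-2KO. By CIRI2 the order was not the same, with 383, 425 and 395 CPM for wild type, 291, 342 and 357 for Adar2KO, and 308 and 366 for Adar1-2KO. For Adar2KO against wild type the edgeR log2 fold change was -0.33 with an SE of 0.28 and an adjusted p of 1.

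ONT listed a circle with the same upper end, chr7:60844731-60852737, whose lower end differs by a few bases. It holds 4 exons in 586 nt, with the motif AG-TT at its ends rather than AG-GT. It had 0 and 3 reads in wild type mice, 4, 5 and 4 in Adar2KO mice, and 17, 13 and 14 in Adar1-2KO mice. Scaled by library this was 40.4, 44.4 and 21.6 CPM in Adar1-2KO, above every other library. The Illumina circle was lowest there by CIRIquant but, as given above, not by CIRI2. The edgeR test did not call it against wild type (log2 fold change 2.23, SE 1.25, adjusted p = 0.737) or against Adar2KO (1.70, SE 0.98, adjusted p = 0.613).

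Circles that span a Mir344 gene numbered 115 on Illumina, of which 20 were tested. They summed to 150, 142 and 129 CPM in wild type brain, 193, 188 and 139 CPM in Adar2KO and 152, 138 and 98.1 CPM in Adar1-2KO, and the 3 genotypes overlapped. The 23 circles that name Mir344 averaged 80.0 ± 12.6 CPM for wild type, 107 ± 13.7 for Adar2KO and 90.9 ± 10.9 in Adar1-2KO (SD, n = 3 each), most of it from chr7:61463010-61575168. The 17 circles that name Mir344b averaged 13.9 ± 0.851, 16.9 ± 8.59 and 3.40 ± 3.77 CPM in the same order, with the 3 Adar1-2KO libraries at 7.72, 1.76 and 0.729 CPM. Mir344d-3 was named by 4 circles with no read in Adar1-2KO and a mean of 3.00 ± 3.46 CPM in wild type. Genes that share the GUCAGGC seed printed above, such as Mir344 and Mir344b, therefore lay in circles that differed in their Adar1-2KO level.

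Over all its 514 circles the Mir344 side stood at 1676, 1622 and 1647 CPM in wild type brain, 1682, 1673 and 1761 CPM in Adar2KO and 1559, 1258 and 1282 CPM in Adar1-2KO. The Adar1-2KO libraries were the lowest of the 9. By CIRI2 the stretch did not differ in this way, at 2546, 2551 and 2484 CPM for wild type, 2329, 2647 and 2409 in Adar2KO, with 2587 and 2609 in Adar1-2KO. The log2 ratio of Adar1-2KO to wild type was -0.27 by CIRIquant, 0.04 by CIRI2 and 0.08 per mapped read. CIRI2 lacks Adar1-2KO replicate 1, and without that library the CIRIquant ratio was -0.38. Scaling by mapped reads moved the median of all tested circles alike, from -0.26 to 0.07.

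**Figure D3:**
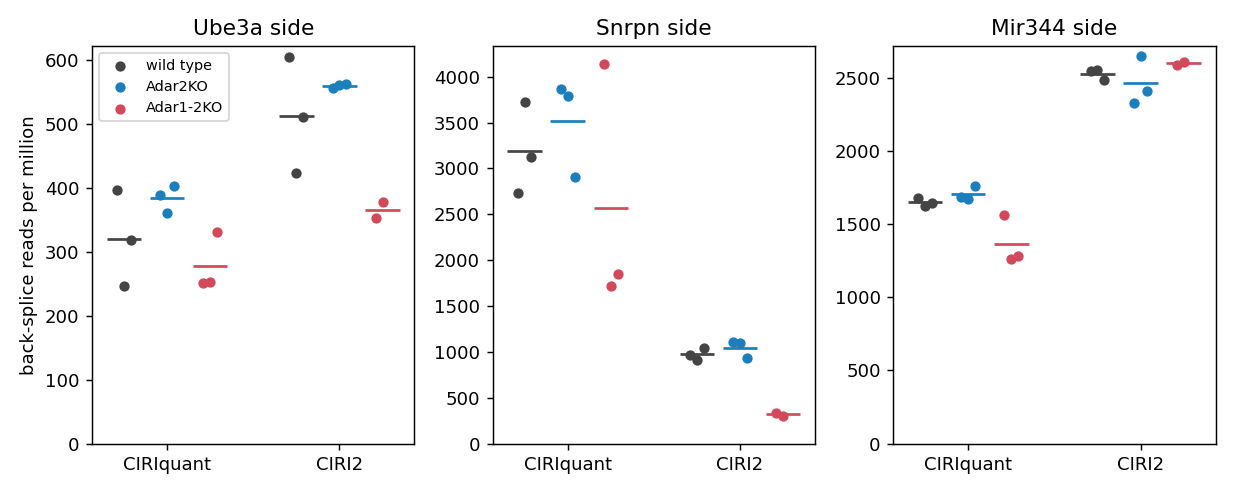
Back-splice reads of all circles of each stretch in each library, as CPM, by CIRIquant (TMM-scaled) and by CIRI2, with points for libraries and a short line for the genotype mean; CIRI2 has 2 Adar1-2KO libraries. On the Mir344 side Adar1-2KO is lowest by CIRIquant only, and on the Snrpn side it spreads from 1719 to 4143 by CIRIquant and is at 339 and 300 by CIRI2.

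The Snrpn side carried the largest share of the interval's back-splice reads by CIRIquant, 2733, 3726 and 3126 CPM in wild type brain, 3865, 3785 and 2911 CPM in Adar2KO and 4143, 1719 and 1853 CPM in Adar1-2KO. Adar1-2KO held both the highest and the lowest library. By CIRI2 the same stretch had 969, 910 and 1038 CPM for wild type, 1103, 1093 and 934 in Adar2KO, with 339 and 300 in Adar1-2KO replicates 2 and 3. The callers thus placed the stretch at different levels, and the CIRIquant levels came in large part from circles that a single library listed. Circles of 1 library held 35.8% to 91.7% of the Snrpn-side reads of a library, against 0.952% to 4.33% on the Mir344 side and 1.63% to 3.13% outside the interval.

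Much of this lay in a small number of circles. In the interval 54 circles with at least 100 reads were listed in only 1 library, all 54 on the Snrpn side, while the rest of the genome had 422. The highest, chr7:59416709-59544864, had 3966 reads (1537 CPM) in Adar2KO replicate 1 and none elsewhere, and CIRI2 gave it 8 reads there. The circle chr7:59404100-59544864 had 2991 reads in Adar2KO replicate 2 alone and 4 by CIRI2. The circle chr7:59160397-59267623 had 4016 reads in Adar1-2KO replicate 3 alone and 2 by CIRI2. Wild type had them as well, with chr7:59419236-59544864 at 2559 reads in replicate 1 and 4 by CIRI2.

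Over the 44 of them in libraries with a CIRI2 table, CIRIquant counted 32625 reads and CIRI2 202. Reads by CIRI2 ran from 2 to 18 a circle, and the ratio of CIRI2 to CIRIquant reads had a median of 0.00956. In the other stretches of the interval, circles with at least 100 reads in a library had a ratio of 0.959 to 4.99 with a median of 1.37, over 86 pairs of circle and library. The deposited gene names of these circles list Snhg14 with many predicted genes, and for several with Snord116 copies. The start positions of all Illumina circles on the Snrpn side were spaced in steps. Of the pairs of starts, 48 lay 1850 to 1899 bases apart and 48 lay 2500 to 2549 bases apart. A further 22 lay 2250 to 2299 and 23 lay 3300 to 3349 bases apart. The other 50-base bins from 1500 to 3499 bases held at most 5 pairs. Reads that could match more than 1 copy of a Snord array could not be checked here, so the positions of these circles are uncertain. Of the 20 highest Illumina members, 13 were on the Snrpn side and 7 of the 20 were listed in 1 library.

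**Figure D4:**
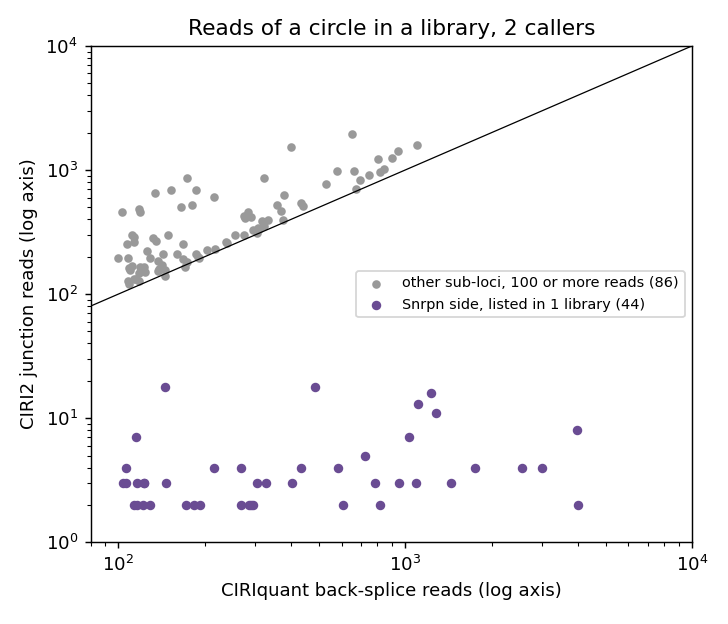
Reads of a circle in a library by CIRIquant (horizontal, log axis) and by CIRI2 (vertical, log axis) for 44 single-library circles of the Snrpn side and for 86 circle-library pairs of the other stretches with at least 100 reads; the line marks equal reads. The Snrpn-side points lie at 2 to 18 CIRI2 reads whatever their CIRIquant count, and the others lie near or above the line.

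Without circles of 1 library, a split chosen after seeing the data, the Snrpn side stood at 1063, 1809 and 2008 CPM in wild type brain, 1361, 1248 and 1850 CPM in Adar2KO and 1770, 714 and 154 CPM in Adar1-2KO. Adar1-2KO replicates 2 and 3 were then the lowest, and the first lay within the other genotypes. Circles on which the callers differed widely remained after this split, so these levels still rest in part on them. In Adar1-2KO replicate 2, chr7:59012517-59037460 had 1273 reads (560 CPM) and 2 by CIRI2. In wild type replicate 2, chr7:59424288-59449688 had 1238 reads and 4 by CIRI2. Adar1-2KO replicates 2 and 3 listed 13.0% and 10.9% of the stretch's 46 tested circles, against 63.0% to 82.6% in the other 7. Outside the interval they listed 80.0% and 40.9% of tested circles, and the other 7 listed 79.7% to 88.7%. On the Mir344 side they listed 56.5% and 35.9% of 92 tested circles against 72.8% to 88.0% in the other 7, and on the Ube3a side 76.2% and 47.6% of 21 against 85.7% to 100%. Replicate 3 thus listed fewer circles across the genome, and replicate 2 fewer within the interval, with the widest gap to the other 7 among these 3 stretches on the Snrpn side; the part of library quality in the Snrpn-side levels was not tested.

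Single circles of the Snrpn side showed the same split within Adar1-2KO. The short exonic Snhg14 circle chr7:59605393-59606548 had 569, 440 and 523 CPM for wild type, 662, 544 and 553 CPM in Adar2KO and 695, 89.2 and 146 CPM in Adar1-2KO. The first Adar1-2KO library was the highest of all 9 and the other 2 the lowest. CIRI2 had 446, 374 and 471 CPM in wild type brain, 526, 462 and 458 in Adar2KO, with 255 and 251 in Adar1-2KO, a smaller gap in the same 2 libraries. The intergenic circle chr7:60435386-60506052, just beyond on the Mir344 side, had 120, 122 and 105 CPM for wild type, 110, 125 and 119 CPM in Adar2KO and 135, 12.8 and 9.23 CPM in Adar1-2KO. Circles named for Snrpn, which encodes a small nuclear ribonucleoprotein of the spliceosome, gave 85.7, 120 and 118 CPM in wild type brain and 158, 43.1 and 7.53 CPM in Adar1-2KO. Those of the non-coding Ipw gave 55.3, 96.9 and 99.1 CPM and 51.1, 10.1 and 4.37 CPM.

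The Snhg14 circle chr7:59116181-59160442 was named after its values were seen. It had 9.21, 10.2 and 62.1 CPM in wild type brain, 1.16, 2.17 and 0 CPM in Adar2KO and none in Adar1-2KO. Wild type lay above both mutants, and a single wild type library carried most of the reads. In the authors' deposited table of Adar2KO against wild type its log2 fold change was -4.00 with an adjusted p of 0.0263, and it was 1 of 5 circles of the interval in that table. The table lists 772 circles, none with an unadjusted p above 0.05, and 5.96% of them had an adjusted p under 0.05, so this share is of a selected list. In the edgeR fit the same contrast gave -4.58 with an SE of 1.54 and an adjusted p of 1, and CIRI2 listed 5, 4 and 2 reads for wild type and 5, 4 and 5 for Adar2KO.

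On the Ube3a side all circles summed to 397, 246 and 319 CPM for wild type, 389, 361 and 404 CPM in Adar2KO and 251, 253 and 331 CPM in Adar1-2KO. Adar1-2KO overlapped wild type and lay below Adar2KO. The leading circle of Ube3a, chr7:58890715-58896965 on the plus strand, was the interval's most abundant ONT circle and held 3 exons in 229 nt. By CIRIquant it had 93.4, 11.1 and 30.1 CPM in wild type brain, 119, 94.1 and 104 CPM in Adar2KO and 0, 105 and 46.4 CPM in Adar1-2KO. Within wild type the highest library was several times the lowest, and Adar1-2KO ran from no read to a level like that of Adar2KO.

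The other tables spread less. By CIRI2 the circle had 79.5, 42.5 and 63.1 CPM for wild type, 102, 80.1 and 84.5 in Adar2KO, with 93.4 and 36.2 in Adar1-2KO. On ONT it had 8 and 14 reads in wild type mice, 40, 32 and 54 in Adar2KO mice, and 27, 19 and 22 in Adar1-2KO mice, or 36.9 and 68.8 CPM, 107, 76.3 and 125 CPM, and 64.2, 64.9 and 33.9 CPM. In all 3 tables every Adar2KO library was above every wild type library, by a narrow gap in both Illumina tables, which come from the same libraries. Of all tested circles, 5.71% by CIRIquant and 19.1% on ONT, with its 2 wild type libraries, were likewise higher in Adar2KO without overlap. No test called that difference: the edgeR log2 fold change of Adar2KO over wild type was 1.23 with an SE of 1.16 on Illumina (adjusted p = 1) and 0.96 with an SE of 0.53 on ONT (adjusted p = 1). On ONT Adar1-2KO differed from wild type by 0.03 (SE 0.53, adjusted p = 1) and from Adar2KO by -0.93 (SE 0.45, adjusted p = 0.516).

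**Figure D5:**
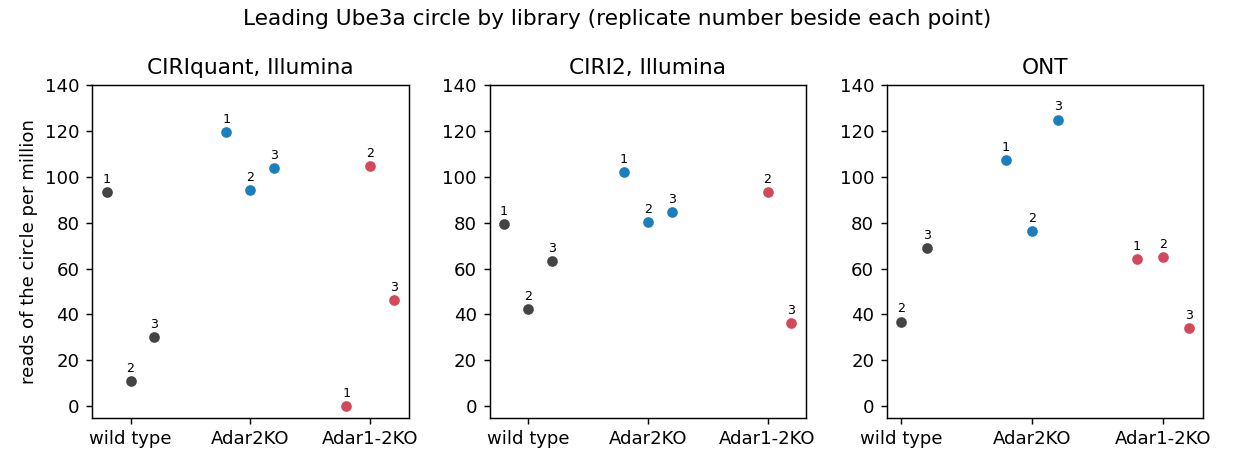
Reads of the circle chr7:58890715-58896965 as CPM in each library by CIRIquant, by CIRI2 and on ONT, with the replicate number beside each point. The 3 Adar2KO libraries lie above all wild type libraries in each panel, and Adar1-2KO replicate 1 is at 0 by CIRIquant and at 64.2 on ONT.

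Another Ube3a circle, chr7:58934428-58938528 (5 exons, 741 nt), had 5 and 2 ONT reads for wild type, 10, 14 and 7 in Adar2KO and none in the 3 Adar1-2KO libraries. ONT lists circles from 2 reads, so an unlisted circle may have 1. The edgeR adjusted p was 0.464 against wild type and 0.177 against Adar2KO. On Illumina it had 49, 51 and 35 back-splice reads in wild type brain, 49, 26 and 33 for Adar2KO, and 31, 0 and 0 in Adar1-2KO, so replicate 1 of Adar1-2KO listed it there. The Snhg14 circle chr7:58933774-58983814, which runs antisense over this part of Ube3a, had 48.6, 41.8 and 41.4 CPM in wild type brain and 46.6, 12.8 and 6.07 CPM in Adar1-2KO. Its 2 low libraries were the same as those of the Snhg14 circles of the Snrpn side.

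Summed over the 43 circles of Ube3a, Adar2KO had 155, 128 and 129 CPM, wild type 134, 53.8 and 67.1 CPM and Adar1-2KO 30.0, 114 and 97.9 CPM. The highest wild type library overlapped Adar2KO.

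The Magel2 side was sparse. Its 22 circles summed to 24.8, 16.4 and 32.6 CPM for wild type, 34.1, 31.2 and 33.4 CPM in Adar2KO and 6.23, 0 and 0 CPM in Adar1-2KO, below all other libraries, and CIRI2 also listed none in Adar1-2KO replicates 2 and 3. Only 4 of the circles were tested. Among the paternally expressed genes near this end, Ndn, which encodes the MAGE family protein necdin, and its relative Magel2 had 1 Illumina circle each, and Mkrn3 and Peg12 had none. ONT listed 12 circles named for Ndn, all short, and 15 for Magel2. The Ndn circles of ONT summed to 18.5 and 54.0 CPM in wild type brain, 56.3, 21.5 and 60.1 CPM in Adar2KO and 92.8, 47.8 and 37.0 CPM in Adar1-2KO, with overlap between all 3 genotypes.

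ONT gave another view of the interval than Illumina. Of its 232 circles 167 were a single block, and 22 had both ends at annotated splice sites with the AG-GT motif. Of the 163 Illumina circles in the fit, 11 were on ONT with the same ends and 13 within 10 bases. Only 5 ONT members were tested, and none was called in any comparison. For Adar1-2KO against wild type the edgeR fit called 0% of all tested ONT circles, for Adar2KO against wild type 0.00965% and for Adar1-2KO against Adar2KO 0.492%. At an unadjusted p under 0.05 stood 1 of the 5 members in the first, none in the second and 1 in the third comparison, beside 777, 444 and 1095 of all 10367 tested ONT circles. DESeq2 called none of the 5. The interval summed to 235 and 270 CPM for wild type, 496, 439 and 541 CPM in Adar2KO and 504, 461 and 623 CPM in Adar1-2KO. Both wild type libraries were the lowest and also the shallowest, with 205273 and 186594 reads; the part of depth in this was not tested.

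The Snrpn and Snurf circle chr7:59634773-59638495 (5 exons, 697 nt) had 4 and 2 ONT reads in wild type mice, 20, 9 and 21 in Adar2KO mice, and 13, 7 and 6 in Adar1-2KO mice. For Adar2KO over wild type the edgeR log2 fold change was 1.51 with an SE of 0.93 (adjusted p = 1). The Ipw circle chr7:59317598-59333830 had 5 and 0 reads, then 6, 2 and 6, then 8, 0 and 0.

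A few circles were high in the third Adar1-2KO library alone, on both platforms. The Ube3a circle chr7:58893098-58921984 had 145 Illumina and 19 ONT reads there and 1 read in all other libraries together. The circle chr7:61594879-61631516 had 174 Illumina and 14 ONT reads there, and no more than 5 in any other library. On ONT this library had 10 interval circles of at least 10 reads that no other ONT library listed, and 76.5% of its interval reads were in circles listed only there. Whether the Illumina and ONT libraries of one replicate number came from the same mouse is not stated in the labels.

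For Adar2KO against wild type on Illumina, none of the 163 tested members was called by the edgeR quasi-likelihood test, where 0.0209% of all tested circles were called. At an unadjusted p under 0.05 stood 4 of the 163 and 698 of all 38297 tested circles. DESeq2 called none of the 163 and 35 of all circles. The median log2 fold change was 0.03 over the members and 0.04 over all tested circles. For the A230057D06Rik circle chr7:61561111-61575168 it was 0.30 with an SE of 0.34 (adjusted p = 1).

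Adar1-2KO against Adar2KO shares the Adar1-2KO libraries with the contrast that chose the interval. Of the 163 members, 3 were called, all lower, where 0.0209% of all tested circles were called. They were chr7:61561111-61575168, chr7:61752447-61768791 and chr7:61841753-61843341. Groups did not overlap and Adar1-2KO was lower for 34 members (9.41% of all tested circles) and higher for 9 (2.39%). As against wild type, 4.03% of all tested circles had no Adar1-2KO read.

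The interval as a whole had 4831, 5611 and 5125 CPM in wild type brain, 5971, 5850 and 5108 CPM in Adar2KO and 5959, 3230 and 3465 CPM in Adar1-2KO, with means of 5189 ± 394, 5643 ± 467 and 4218 ± 1512 CPM (SD, n = 3 each). Adar1-2KO overlapped both other genotypes through its first library, and the log2 ratio of its mean to wild type went from -0.30 to 0.09 when mapped reads replaced back-splice reads as the denominator, a change of scale that also moved the median of all tested circles from -0.26 to 0.07. The window before the interval had 1154, 1236 and 930 CPM in wild type brain and 1189, 1124 and 621 CPM in Adar1-2KO, and the window after it 1651, 1823 and 1796 CPM and 1614, 1581 and 1459 CPM. The neighbour Herc2, a ubiquitin ligase gene that is not imprinted, had 649, 723 and 482 CPM in wild type brain and 638, 517 and 34.2 CPM in Adar1-2KO, so replicate 3 was low outside the interval too. By CIRI2 the interval had 4144, 3899 and 4066 CPM for wild type, 4027, 4334 and 3935 in Adar2KO, with 3279 and 3287 in Adar1-2KO. Read names in the CIRI2 tables gave flow cells. Those of Adar1-2KO replicate 1 are not known, as no CIRI2 table of it was used. Wild type and Adar1-2KO replicate 2 were on flow cell 1 alone. Adar2KO replicates 1 and 2 were mostly on flow cell 2 (90.1% and 95.8% of junction reads), and replicate 3 mostly on flow cell 1. Adar1-2KO replicate 3 was on flow cells 3 and 4, which no other library with a CIRI2 table used. Its flow cells and the library therefore cannot be told apart. Between its 2 flow cells the interval had 3263 and 3313 CPM. Within the Adar2KO replicates it had 3852 to 4060, 4187 and 4340, and 3935 and 3937 CPM.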

How the data were processed

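Circles were joined across libraries by chromosome, start and end. Per the submitters' processing notes, reads were aligned with BWA 0.7.17 to GRCm39, and per the file headers circles were quantified with CIRIquant 1.1.2. The deposited CIRIquant tables hold counts of back-splice and forward-splice reads, a junction ratio as a fraction, and a CPM value per mapped reads. Headers of the Adar1-2KO tables are shifted by 1 column against the values, which were read by position. CIRI2's deposited tables give junction and non-junction counts and a fraction, and the deposited ONT tables counts of reads, from a caller not given in the sources used here. The authors' deposited comparisons (DESeq2 2.11.40.8, per the submitters' processing notes) hold a mean signal, a log2 fold change with its standard error, a Wald score and p-values.

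Circles that reached 5 reads in 3 libraries or more were fitted with edgeR 4.0.16 (TMM, two-sided quasi-likelihood test, Benjamini-Hochberg adjustment over all of them, R 4.3.3), 38297 on Illumina and 10367 on ONT, all libraries of a platform in 1 fit. The fit was tested on simulated data. SE is that of the fitted log2 fold change. The members, stretches and lists were chosen with earlier results of these data known. Named were, per platform, the 20 members of highest mean CPM, the 3 highest of each stretch and every called member; others are marked in the text. Folds against a group at 0 use a floor of 3 reads over the group; floors and bounds cover counting error only, since PCR reads are not independent molecules. Alternatives were DESeq2 1.42.0, other scalings and filters, CIRI2 counts, a replicate block and each library left out.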

Additional observations from a re-analysis of the deposited data

How the results depend on the processing

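Calls of members depended on the setting, and the cause was not tested unless named. For Adar1-2KO against wild type on Illumina, 5 of 163 members were called, of 24 circles called in all. The count was 18 (of 180 in all) with DESeq2, 3 (of 17) with DESeq2 size factors, 3 (of 18, with 105 members tested) at a minimum of 10 reads, 50 (of 434, with all 1315 members tested) without a filter on low counts, 3 (of 15) with mapped reads as library sizes, 2 (of 24, with 238 members tested) with CIRI2 counts and 5 (of 24) without TMM. A replicate block gave 2 (of 20), and edgeR with its newer quasi-likelihood method, an alternative chosen after seeing the data, gave 1 (of 20); leaving out 1 library gave 1 to 6 (of 8 to 46). For Adar1-2KO against Adar2KO on Illumina, 3 were called, of 8 in all. The count was 17 (of 174) with DESeq2, 42 (of 372) without a filter, 1 (of 4) with mapped reads, 1 (of 5) with the replicate block, 1 (of 8) with the newer method and 1 to 6 (of 3 to 28) with 1 library left out. Adar2KO against wild type on Illumina gave 0, except 31 (of 95) without a filter, and the 3 ONT comparisons gave 0 under every alternative run. The deviations of same-numbered libraries from their genotype means correlated at -0.0335 to 0.0434. With 2 or 3 libraries a genotype, these values cannot decide whether the replicate numbers pair the libraries. The circle chr7:61561111-61575168 was called in 18 of 18 alternatives in both Adar1-2KO comparisons, with an adjusted p of at most 0.000203 against wild type, while against wild type chr7:61841753-61843341 was called in 12, chr7:61752447-61768791 in 7, and chr7:61575059-61581241 and chr7:61840465-61843341 in 4 each. The log2 ratio of the interval's Illumina level in Adar1-2KO over wild type, -0.30, ran from -0.63 to -0.14 with 1 library left out, was -0.71 over circles past the filter and -0.54 without circles of 1 library. The Snrpn side's ratio was -0.31 by CIRIquant and -1.61 by CIRI2, which lacks Adar1-2KO replicate 1. Without that library CIRIquant gave -0.84. On ONT the interval's ratio was 1.07, 0.93 to 1.17 with 1 library left out, and 0.20 over circles past the filter, which keeps 5 members. On ONT, 5 of 232 members reached the filter and could be tested.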
